A study of Homo sapiens with 16 samples.

Results

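The messages of 9 chemokines were followed in SUM225 cells (SUM-225 in the labels), a breast cancer cell line with amplified and over expressed HER2, while the kinase activity of HER2 was inhibited. The genes are IL8, CXCL1, CXCL2, CXCL3, CXCL5, CXCL10, CCL2, CCL20 and CCL5. They were chosen from their measured values, with earlier results of these arrays known, so their courses are given as a description without a test. They are 9 of the 18631 gene symbols in the table, each with 1 probe, and all 9 probes passed the filter on low values (a detection p-value under 0.05 on at least 3 of the arrays).

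By the labels the SUM225 cells grew in Ham's F-12 medium with fetal bovine serum, insulin and hydrocortisone. The study's methods name for this line a medium that held neither EGF nor insulin, and which of them these cultures had is not settled by the sources used here. The cells received 1 µM CP724,714, a small molecule inhibitor of the HER2 kinase. A separate culture was taken at each 3 h step up to 45 h and measured on 1 Illumina bead array, which gave 16 arrays without a replicate at any time point. The 0 h culture is the only one without the inhibitor, no untreated time course was analysed here, and 1 cell line is the whole of the model. The methods describe a medium change at the start of treatment for other cell lines of the study and do not say whether it was made here, so the inhibitor and the handling of the cultures in the first 3 h cannot be told apart.

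Chemokines are small secreted proteins that draw leukocytes along a gradient by binding G protein-coupled receptors. IL8 (CXCL8) attracts neutrophils through CXCR1 and CXCR2, and CXCL1, CXCL2, CXCL3 and CXCL5 do so mainly through CXCR2. CXCL10 attracts T cells through CXCR3, CCL2 attracts monocytes through CCR2, CCL20 binds CCR6, and CCL5 binds receptors that include CCR1 and CCR3. Epithelial and carcinoma cells transcribe many of these genes under NF-kB and AP-1 and, for CXCL10, under interferon signals, and several of the messages are short lived.

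The IL8, CXCL1, CXCL2, CXCL3 and CXCL5 genes lie in 1 cluster on chromosome 4, where RefSeq (GRCh38.p14) places the protein-coding genes in the order CXCL8, CXCL6, PF4V1, CXCL1, PF4, PPBP, CXCL5, CXCL3, CXCL2. CXCL10 lies on the same chromosome outside this run, CCL2 and CCL5 on chromosome 17 and CCL20 on chromosome 2. Promoter windows of 250 bases before to 50 bases after the start were taken from RefSeq for 7 of the 9 genes, all but CCL2 and CCL5, and searched on both strands for the NF-kB motif GGAATTTCC, the AP-1 motif TGACTCA, the TATA box TATAAA and the interferon response motif GAAANNGAAA. The letters GGAATTTCC or their reverse complement stood in the windows of 6 of these 7 genes and in 162 of all 35116 RefSeq promoter windows of this length (0.461%). The stretches around it are shown because 5 of the 6 genes are the neutrophil-attracting ligands and because the copies in CXCL1, CXCL2 and CXCL3 stand in nearly the same sequence. Capitals mark GGAATTTCC or its reverse complement and, in IL8, also TGACTCA and, in CXCL10, also the interferon response motif. No other form of the NF-kB motif was searched for or marked, so the stretches and windows may hold others. The share of windows is given for that form alone, and no enrichment is read from it. Each line runs 5′ to 3′ along the gene.
CXCL1, chr4:73869265-73869374, plus strand: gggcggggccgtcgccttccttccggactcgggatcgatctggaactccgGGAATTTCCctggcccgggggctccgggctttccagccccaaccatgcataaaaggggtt
CXCL2, chr4:74099213-74099322, minus strand: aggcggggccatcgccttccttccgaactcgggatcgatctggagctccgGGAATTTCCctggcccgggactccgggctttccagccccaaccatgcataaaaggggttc
CXCL3, chr4:74038708-74038817, minus strand: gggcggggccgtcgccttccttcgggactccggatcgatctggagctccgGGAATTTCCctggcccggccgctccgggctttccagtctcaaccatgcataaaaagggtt
CXCL5, chr4:73998708-73998817, minus strand: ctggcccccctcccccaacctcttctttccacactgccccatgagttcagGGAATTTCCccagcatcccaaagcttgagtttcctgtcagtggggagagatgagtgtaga
IL8 (CXCL8), chr4:73740399-73740548, plus strand: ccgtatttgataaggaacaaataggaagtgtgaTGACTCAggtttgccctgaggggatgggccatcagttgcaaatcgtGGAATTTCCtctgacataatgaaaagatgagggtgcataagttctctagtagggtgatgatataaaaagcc
CXCL10, chr4:76023598-76023747, minus strand: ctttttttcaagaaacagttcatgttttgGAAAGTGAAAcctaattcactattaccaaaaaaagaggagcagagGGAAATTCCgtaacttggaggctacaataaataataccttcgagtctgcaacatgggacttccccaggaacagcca

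The NF-kB letters began 78 bases before the start in CXCL1 and CXCL3, 77 in CXCL2, 90 in CXCL5 and 91 in IL8. In CXCL10 they lay on the opposite strand, beginning 176 bases before the start. Over the 59 bases that end with the motif, CXCL1 and CXCL3 were 94.9% identical, CXCL1 and CXCL2 93.2% and CXCL2 and CXCL3 91.5%, whereas these 3 genes shared between 44.1% and 47.5% with CXCL5 and IL8, and CXCL5 and IL8 shared 35.6% with each other. TGACTCA was found in IL8 (137 bases before the start) and in 4.95% of all windows. TATAAA was found in IL8 and CCL20 and in 11.5% of all windows, and GAAANNGAAA in CXCL10 (221 bases before the start) and in 3.57%. These matches describe the letters in the windows and do not show that a factor binds there.

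The arrays were of similar quality. Between 57.5% and 61.5% of the 24526 probes were detected on each array, and the median signal intensity ran from 242 to 384. All 7 epithelial and HER2 markers (KRT8, KRT18, KRT19, EPCAM, CDH1, ERBB2, GRB7) were detected on all 16 arrays. Of the leukocyte markers CD14, CD68 and LYZ were detected on all 16 arrays, and PTPRC, which marks all leukocytes, and ITGAM on none. Of the fibroblast markers COL1A1 and COL1A2 were detected on 5 arrays each and COL3A1, DCN, FAP and PDGFRB on none. Of the endothelial markers PECAM1 was detected on all 16 arrays, VWF on 13, KDR on 4 and CDH5 on 1. VWF rose by 2.51 over the 45 h (linear change, adjusted p = 4.03e-07 by limma), and its part in the results was not tested. Values below are log2 signals after background correction and quantile normalization, a log2 difference of 1 being a doubling, and they compare 1 probe with itself over time and not 1 gene with another. In RNA of whole cultures, fewer cells with a message and less of it per cell cannot be told apart.

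The 9 chemokines did not share 1 course. IL8, CCL2 and CXCL1 were highest at 0 h and dropped steeply within 3 h, and CCL20 dropped and then stayed level. CXCL5 declined in stages until it was no longer detected from 24 h. CXCL10 was higher at 3 h and 6 h and then dropped to a plateau. CCL5 increased up to the window of 24 to 33 h, and its mean was level from there to 36 to 45 h. CXCL2 and CXCL3 were near the detection limit. At 0 h 6 of the 9 genes had their highest value, with all 15 later arrays below it, and CCL5 had its lowest value there. The genes were chosen with these values known. How many of all probes tested had their highest or lowest value at 0 h was not counted, so nothing is read from this count.

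**Figure D1:**
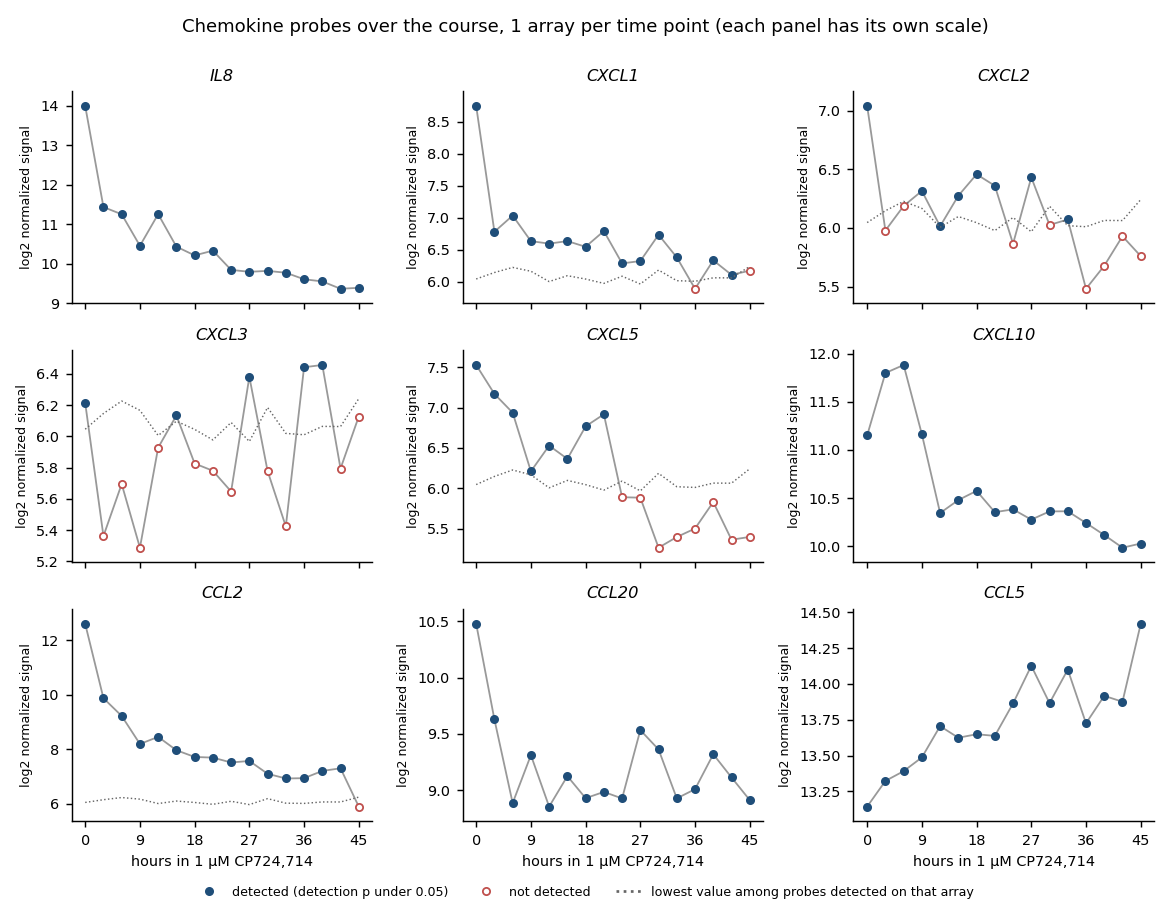
Log2 normalized signal of each chemokine probe (vertical axis, own scale in each panel) against hours in 1 µM CP724,714, with 1 array per point. Filled points are detected, open points are not, and the dotted line is the lowest value among probes detected on that array. IL8 and CCL2 were highest at 0 h and dropped within 3 h, at −2.56 and −2.73, whereas CCL5 was lowest at 0 h and highest at 45 h.

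IL8, the prototype neutrophil attractant, was detected on all 16 arrays. Its log2 values at 0, 3, 6 and 9 h were 13.99, 11.43, 11.25 and 10.45. It was 11.25, 10.43, 10.21 and 10.33 from 12 to 21 h, 9.84, 9.79, 9.82 and 9.77 from 24 to 33 h, and 9.60, 9.55, 9.36 and 9.39 from 36 to 45 h. The 0 h array stood alone above the rest, the 12 h array was a step up from 9 h, and no array from 24 h on reached the lowest value seen before it. The probe was chosen with these values known, and how many other probes part at 24 h was not counted.

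At 3 h the IL8 signal was 5.89-fold lower than at 0 h, the 9th largest drop among the 16110 probes tested, and the whole course spanned 24.7-fold. The unnormalized signal went from 16375 at 0 h, where it was 22.2% of the brightest probe of that array, to 668 at 45 h. The decline continued after the first interval. The mean was 11.05 ± 0.52 at 3 to 9 h (SD, n = 3), 10.56 ± 0.47 at 12 to 21 h, 9.81 ± 0.03 at 24 to 33 h and 9.48 ± 0.12 at 36 to 45 h (SD, n = 4 each). Between the first and the last of these windows the difference was −1.57 ± 0.21 (SE), or 2.97-fold, and the linear change over the 45 h was −3.03 ± 0.30 (SE). Without the 0 h array it was −2.00, over the 42 h that remain, as are all changes given without that array.

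CCL2, the monocyte attractant, showed the widest course of the 9. Its values at 0, 3, 6 and 9 h were 12.61, 9.88, 9.22 and 8.19. They were 8.46, 7.96, 7.72 and 7.69 from 12 to 21 h, 7.51, 7.57, 7.10 and 6.93 from 24 to 33 h, and 6.94, 7.20, 7.30 and 5.89 from 36 to 45 h. Every later array was below 0 h, and the probe was detected on 15 arrays but not at 45 h (detection p 0.0924).

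At 3 h CCL2 was 6.64-fold lower than at 0 h, the 7th largest drop of the probes tested, and at 45 h it was at least 82.4-fold lower than at 0 h, counting from the lowest detected value of the 45 h array. Its linear change of −4.04 ± 0.31 (SE) was the 8th most negative of the probes tested, and it was −2.75 without the 0 h array. The means of the windows were 9.10 ± 0.85, 7.96 ± 0.35, 7.28 ± 0.31 and 6.83 ± 0.65 (SD, n = 3 and then 4 each). The last window was 2.26 ± 0.34 log2 units (SE) below the first, or 4.81-fold, with the undetected 45 h value in it. Without background correction that difference was −1.34 and the linear change −2.72.

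CXCL1, another CXCR2 ligand, dropped in the first interval and declined further, by less, after it. It was 8.75 at 0 h and 6.78 at 3 h, and between 5.89 and 7.04 on all 15 later arrays, with a median of 6.55. The 0 h array was above all others. At 3 h CXCL1 was 3.90-fold lower than at 0 h, the 20th largest drop. It was detected on 14 arrays, and on the other 2, at 36 h and 45 h, it was at least 6.66-fold and 5.68-fold lower than at 0 h. The linear change of −1.41 ± 0.28 (SE) was −0.75 without the 0 h array. The last window differed from the first by −0.69 ± 0.18 (SE). Because the probe was dim after 0 h, the background setting mattered. Without background correction the difference between 3 h and 0 h was −1.09 and that between the windows −0.25.

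CCL20, the ligand of CCR6, was detected on all 16 arrays. It was 10.48 at 0 h, 9.63 at 3 h and 8.89 at 6 h, and between 8.86 and 9.53 from then on, so that its 15 later arrays spanned only 1.71-fold. At 3 h it was 1.80-fold lower than at 0 h, the 284th largest drop. Its linear change was −0.54 ± 0.19 (SE) with the 0 h array and −0.11 without it, and the last window differed from the first by −0.19 ± 0.17 (SE). After the first 6 h no further direction was seen in CCL20.

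CXCL5 dropped less than IL8 and CCL2 in the first 3 h (−0.36). It was 7.53, 7.17, 6.94 and 6.21 on the arrays of 0 to 9 h, and 6.53, 6.36, 6.77 and 6.92 from 12 to 21 h. The probe was detected on all 8 arrays from 0 to 21 h and on 0 of 8 from 24 to 45 h, where it was at least 2.44-fold to 2.95-fold lower than at 0 h. CXCL5 thus passed the filter on low values through the early arrays alone. Its early and late values did not overlap, but the probe was chosen with these values known. How many other probes part in this way was not counted. Between 12 to 21 h and 24 to 33 h the measured mean of CXCL5 dropped by 1.04 ± 0.23 (SE), with every value of the later window below detection. On the scale without background correction the drop was a difference of −0.36. The linear change was −2.01 ± 0.29 (SE), and −0.74 without background correction.

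CXCL2 and CXCL3, both CXCR2 ligands, were dim. CXCL2 was 7.04 at 0 h and between 5.48 and 6.46 afterwards, and was detected on 6 of 8 arrays up to 21 h and on 2 of 8 later. It was not detected at 3 h and was there at least 1.86-fold lower than at 0 h. CXCL3 was detected on 5 arrays, at 0, 15, 27, 36 and 39 h, and between 5.29 and 6.46 over the course. At 3 h it was not detected, and its drop from 0 h was at least 1.05-fold. Neither probe had a clear course. The linear change was −0.76 ± 0.25 (SE) for CXCL2, and 0.21 ± 1.04 (SE) within sets of 4 successive arrays, and for CXCL3 it was 0.43 ± 0.30 (SE), and −2.28 ± 1.05 (SE) within those sets. Here and below, a change within sets is the slope shared by the sets scaled to 45 h, and not a measured change. The last window of CXCL3 was 0.76 ± 0.24 (SE) above the first, in which it was detected on 0 of 3 arrays. These 2 genes and CXCL1 are close copies of each other, and whether each probe reads only its own message was not tested.

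CXCL10, which interferons induce, took another course and was detected on all 16 arrays. It was 11.15, 11.80, 11.88 and 11.16 on the arrays of 0 to 9 h, and 10.35, 10.48, 10.58 and 10.35 from 12 to 21 h. From 24 to 45 h it lay between 9.99 and 10.38. The 4 arrays from 0 to 9 h were above all 12 later arrays. This probe too was chosen with its values known, and how many others part at 12 h was not counted.

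At 3 h CXCL10 was 1.57-fold higher than at 0 h, while IL8, CCL2, CXCL1 and CCL20 were lower. Its mean went from 11.61 ± 0.39 at 3 to 9 h (SD, n = 3) to 10.44 ± 0.11 at 12 to 21 h (SD, n = 4), a difference of −1.18 ± 0.13 (SE) or 2.26-fold, and of this the step from 9 h to 12 h was −0.82. The later means were 10.35 ± 0.05 and 10.09 ± 0.11 (SD, n = 4 each). The linear change over 45 h was −1.53 ± 0.22 (SE), and −0.19 ± 0.66 (SE) within sets of 4 arrays that follow each other (those of 0 to 9 h, of 12 to 21 h and so on). Within the first of these sets it went from 11.88 at 6 h to 11.16 at 9 h. The labels name no batch, and whether the arrays of a set were processed together was not tested.

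CCL5, which attracts T cells and monocytes, was the only one of the 9 whose linear change was positive and past the threshold. It was 13.14, 13.32, 13.39 and 13.49 on the arrays of 0 to 9 h, between 13.62 and 13.71 from 12 to 21 h, between 13.86 and 14.13 from 24 to 33 h, and 13.72, 13.92, 13.88 and 14.42 from 36 to 45 h. All 15 later arrays were above 0 h. The whole course spanned 2.42-fold, against 24.7-fold for IL8.

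The linear change of CCL5 was 0.88 ± 0.12 (SE), and it was 1.28 ± 0.45 (SE) within those sets of 4 arrays. The last window was 0.58 ± 0.12 (SE) above the first. Most of this lay before 36 h, since the means at 24 to 33 h and 36 to 45 h were 13.99 ± 0.14 and 13.98 ± 0.30 (SD, n = 4 each). The brightest CCL5 signal was 36.4% of the brightest probe of its array.

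**Figure D2:**
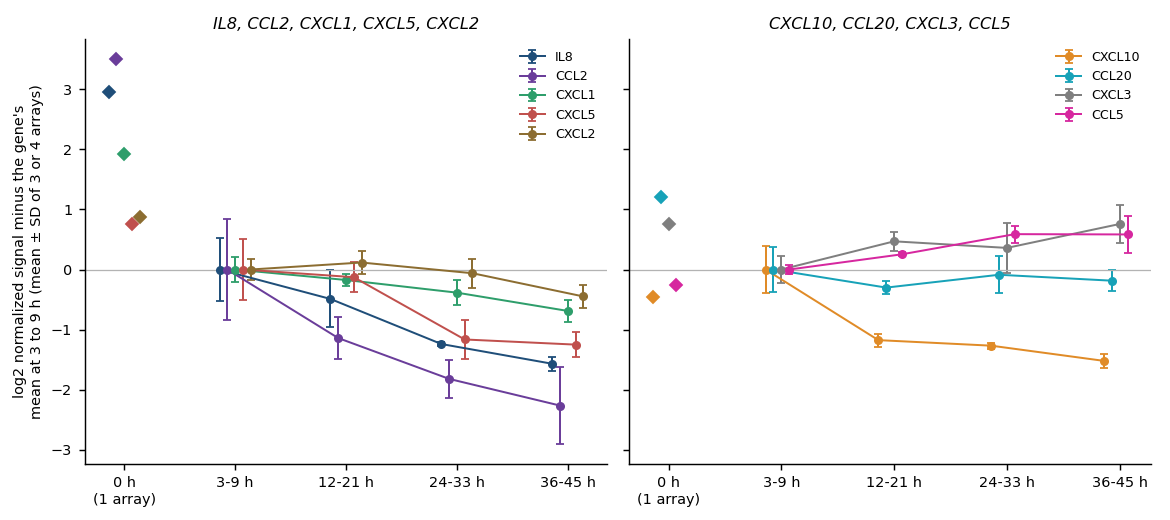
Log2 normalized signal of each gene relative to its own mean at 3 to 9 h (vertical axis) at 0 h and in 4 windows of time (horizontal axis). Diamonds are the single 0 h array, circles with bars the mean ± SD of 3 arrays (3 to 9 h) or 4 arrays, with undetected values at their measured level. CCL2, IL8 and CXCL5 went on declining after 9 h, CXCL10 stepped down by 1.18 between the first 2 windows, and CCL5 increased.

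At a fold of 1.7 between 3 h and 0 h, 6 of the 9 probes were lower (CCL2, IL8, CXCL1, CXCL2, CXCL3 and CCL20), against 2.43% of the 16110 probes tested, and 0 of 9 were higher, against 1.82%. CXCL2 and CXCL3 were not detected at 3 h and are counted at their measured level. Counted to the lowest value detected on that array, CXCL2 was still past the fold (at least 1.86-fold). By that bound CXCL3 was not (at least 1.05-fold). The difference between 3 h and 0 h was negative for 7 of the 9 and positive for CXCL10 and CCL5, with a median of −0.85 over the 9 and of 0.01 over all probes tested. The rule that chose the genes used these values, so nothing is read from the counts, which rest on 1 array at 0 h and 1 at 3 h. Of the 4 probes detected on all 16 arrays (IL8, CXCL10, CCL5 and CCL20), 2 were past the fold (IL8 and CCL20), while CCL2 leaves that count through its 45 h array. Without background correction 3 of the 9 were past it.

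**Figure D3:**
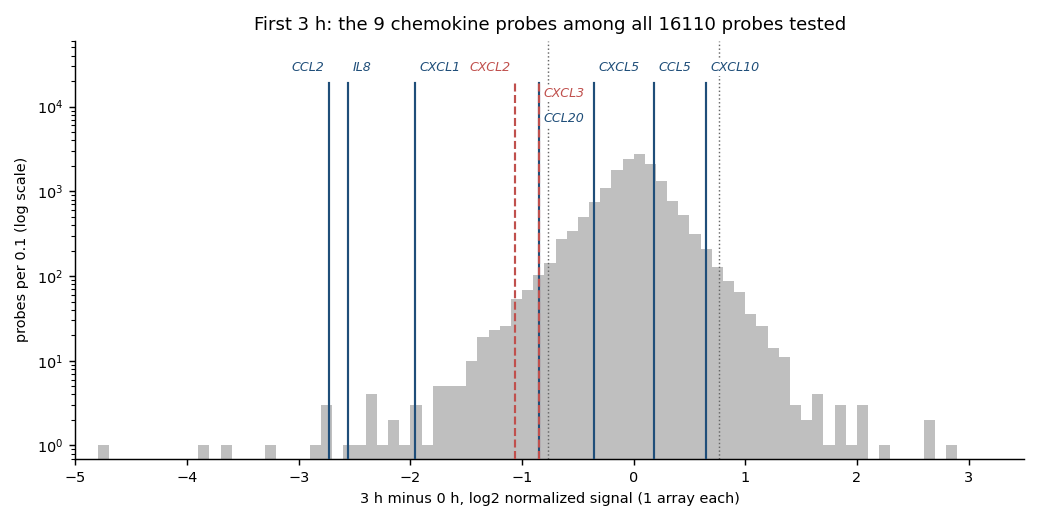
Number of probes (vertical axis, log scale) by their difference between 3 h and 0 h (horizontal axis, log2, bins of 0.1) for all 16110 probes tested. Lines mark the 9 chemokine probes, dashed where the probe was not detected at 3 h, and dotted lines mark a fold of 1.7. CCL2, IL8 and CXCL1 lie in the far left tail, at −2.73, −2.56 and −1.96.

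Over the whole course, 7 of the 9 probes (all but CXCL2 and CXCL3) passed the F-test of a cubic course, against 51.3% of the probes tested. A linear trend was falling for 7, against 21.7%, and rising for 1, CCL5, against 26%. The median linear change was −1.41 over the 9 and 0.05 over all probes tested. Without the 0 h array 5 of the 9 were falling, and CCL20 and CXCL2 were not. With the 12 h sets as a factor 0 of the 9 passed, and of all probes tested 68 rose and 77 fell. Within the sets the linear change was −5.56 ± 1.78 (SE) for IL8, −8.14 ± 2.07 for CCL2, −1.60 ± 1.46 for CXCL1, −1.76 ± 1.02 for CCL20 and −2.06 ± 1.09 for CXCL5, each with a larger error than over the whole course. These are slopes within the sets scaled to 45 h and not changes that took place. For IL8 and CCL2 they exceed the whole measured range, 4.63 and 6.71.

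Between neighbouring windows, 2 of the 9 dropped from 3 to 9 h to 12 to 21 h (CCL2 and CXCL10), against 12.9% of the probes tested, and 0 increased, against 14.8%. From 12 to 21 h to 24 to 33 h the counts were 2 lower (IL8 and CXCL5), against 4.12%, and 0 higher, against 5.21%. From 24 to 33 h to 36 to 45 h they were 0 lower, against 3.1%, and 0 higher, against 0.906%. Between the first and the last window 5 were lower (IL8, CCL2, CXCL1, CXCL5 and CXCL10), against 18.6%, and 2 were higher (CCL5 and CXCL3), against 23.7%. The same values chose the genes, and nothing is read from these counts or from those of the whole course.

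The 9 courses were compared with each other by their correlation over the arrays. IL8 and CCL2 ran most alike, with Pearson r = 0.97 over 16 arrays (Spearman rho = 0.91) and r = 0.91 over the 15 arrays without 0 h. CXCL1 and IL8 had r = 0.93 with and 0.78 without the 0 h array. CCL20 and IL8 had r = 0.69 with it and 0.06 without, so their likeness rested on the 0 h array. CCL5 had a negative r with every one of the other genes except CXCL3, as with CCL2 (−0.85 over 16 arrays and −0.86 over 15). All points share the same arrays and the same order in time, so these correlations are descriptions of courses.

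**Figure D4:**
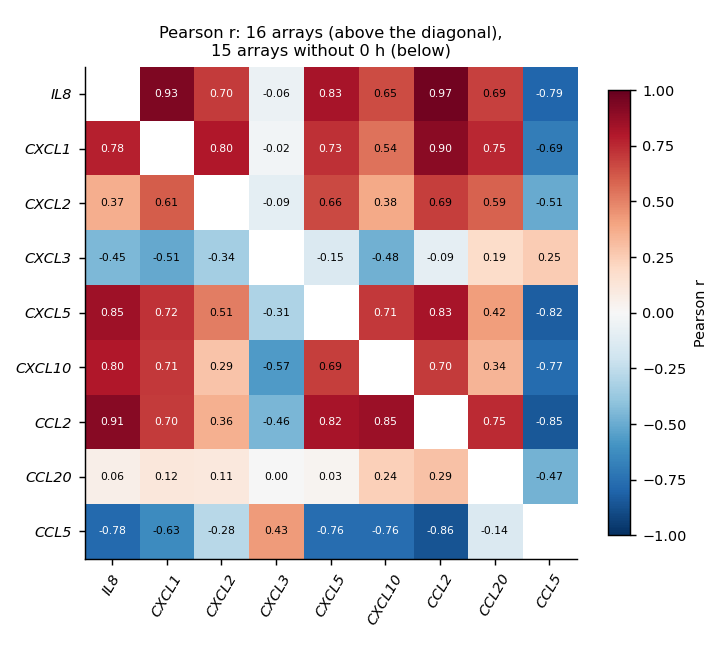
Pearson r between the log2 courses of the 9 chemokines, over 16 arrays above the diagonal and over the 15 arrays without 0 h below it (colour scale from −1 to 1). The pair of IL8 and CCL2 keeps its r (0.97 and 0.91), that of CCL20 and IL8 does not (0.69 and 0.06), and the row of CCL5 is negative except with CXCL3.

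Of 12049 other genes detected on at least 8 arrays, those whose courses over the 16 arrays were most like that of IL8 were PDXP (r = 0.97, and 0.92 without 0 h), ARMET (0.97 and 0.92) and ARPC5L (0.95 and 0.88). For CCL2 they were PDXP (0.97 and 0.94), SLC45A3 (0.95 and 0.91) and FLJ20516 (0.95 and 0.96), and for CXCL1 GEMIN6 (0.95 and 0.80), PDXP (0.93 and 0.72) and BXDC2 (0.90 and 0.46). PDXP, a pyridoxal phosphatase, thus stood in the lists of all 3 genes. The courses most like CXCL5 were those of the chaperone HSP90AB1 (0.94 with and without 0 h), its cochaperone PTGES3 (0.94 and 0.92) and C14orf151 (0.94 and 0.92). Those most like CXCL10 were BOLA3 (0.97 and 0.98), the replication factor MCM5 (0.97 and 0.98) and CALML4 (0.96 and 0.96). For CCL5 they were NFS1 (0.97 and 0.95), DOCK1 (0.95 and 0.93) and GPRC5C (0.94 and 0.94), for CCL20 ANKRD22 (0.88 and 0.80), FJX1 (0.87 and 0.60) and SEC23B (0.87 and 0.80), and for CXCL2 ENTPD7 (0.81 and 0.72), AMD1 (0.78 and 0.59) and EXOSC10 (0.78 and 0.72). CXCL3 was detected on too few arrays for this. Of the 9 themselves, IL8 and CCL2 were each among the other's 3 most alike genes (0.97 and 0.91). So were IL8 for CXCL1 (0.93 and 0.78) and CXCL1 for CXCL2 (0.80 and 0.61).

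The related genes below come from lists of the pathway and were tested by limma over all probes tested, with Benjamini-Hochberg adjustment of the linear change. Beside each list's counts stand the 26% of all probes tested that rose and the 21.7% that fell. With the 12 h sets as a factor most of these calls were lost. The ligand, receptor, NF-kB, inflammatory output and AU-rich lists then had 0 rising and 0 falling genes, the inflammatory receptors and adaptors 0 rising and 1 falling (IL1RN), and the interferon-stimulated genes 8 rising and 0 falling. The first list holds 34 other chemokine ligands, of which 30 were on the array and 13 passed the filter on low values. CXCL6, PF4 and PPBP, the neighbours of IL8 and CXCL1 in the cluster, were detected on 0 arrays. Of the 13 tested, 5 rose (CCL17, CX3CL1, CCL19, CCL28 and CCL22, the last 2 named after their values were seen) and 0 fell in limma, also at an unadjusted p under 0.05. With arrays left out CCL13 fell without 0 h (by 0.63) and CCL23 and CXCL16 fell without 45 h (by 0.44 and 0.21). Between the first and the last window CCL16 and CCL25, named after their values were seen, were lower, at −0.56 (adjusted p = 0.0462) and −0.65 (adjusted p = 0.0227, limma). The largest rise was that of CCL17, a T cell attractant, with 1.35 ± 0.20 (SE, adjusted p = 1.73e-05), and its probe was detected on 7 arrays.

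CX3CL1, a chemokine tethered to the cell membrane, was detected on all 16 arrays. It was 13.43 at 0 h, 12.01 at 3 h and 13.80 at 45 h, so it dropped by 1.42 in the first 3 h and then returned. Its linear change was 0.92 ± 0.28 (SE, adjusted p = 0.011 by limma), no longer past the threshold without the 3 h array (0.57) and negative within the 12 h sets (−1.01), and its last window was 1.17 ± 0.16 (SE) above the first (adjusted p = 9.74e-06). CCL19 rose by 0.66 ± 0.24 (SE, adjusted p = 0.0302 by limma) and did not pass without the 0 h, the 39 h or the 45 h array (0.57, 0.56 and 0.38).

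All 22 chemokine receptors of the list were on the array, 10 were tested, 2 rose and 0 fell in limma, also at an unadjusted p under 0.05. The decoy receptor ACKR2 fell without the 9 h array (by 0.42) or without the 45 h array (by 0.43). ACKR3 (CMKOR1 in the table), an atypical receptor that takes up CXCL12, was 7.03 at 0 h, 9.04 at 3 h and 11.38 at 45 h, and rose by 3.37 ± 0.25 (SE, adjusted p = 2.65e-09 by limma). CCR9 rose by 1.21 ± 0.24 (SE, adjusted p = 0.000373) and had a change of −0.14 within the 12 h sets. The receptors of the 9 ligands were measured unevenly. CCR6, the receptor of CCL20, was detected on all 16 arrays, CXCR2 on 11, CXCR1 on 5 and CXCR3 on 3, and CCR1, CCR2 and CCR3 on 0, and none of the 4 that were tested passed in the linear trend.

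NF-kB is a dimer of Rel proteins that inhibitors hold in the cytoplasm until the IKK complex marks those inhibitors for destruction. Of 24 subunits, inhibitors and kinases of this pathway, 22 were tested, and 5 rose and 5 fell. CYLD, a deubiquitinase that restrains the pathway, rose by 0.57 ± 0.13 (SE, adjusted p = 0.0011), TNIP2 by 0.53 ± 0.15 (adjusted p = 0.00511) and TRAF6 by 0.44 ± 0.12 (adjusted p = 0.00601, limma). The adaptor TRAF2 fell by 0.86 ± 0.16 (adjusted p = 0.000192), the subunit RELB fell by 0.77 ± 0.14 (adjusted p = 0.000162) and the inhibitor NFKBIB fell by 0.70 ± 0.14 (adjusted p = 0.00038, limma). The median linear change of the list was −0.01, against 0.05 over all probes tested. Without the 45 h array 3 of the list fell, TRAF6 did not pass without the 0 h array (0.31), and TNIP2 had a change of −0.22 within the 12 h sets.

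Of 28 other genes that NF-kB and inflammatory signals are known to drive, 19 were tested, 7 rose and 3 fell, with a median linear change of 0.23. The 3 that fell were TNF, the cytokine that itself activates NF-kB, by 2.20 ± 0.23 (SE, adjusted p = 2.35e-07), IL32, by 1.71 ± 0.15 (adjusted p = 2.76e-08), and the metalloproteinase MMP9, by 1.05 ± 0.23 (adjusted p = 0.000944, limma). TNF was 7.92 at 0 h and 7.57 at 3 h, and it was detected on 8 arrays. The complement factor CFB rose by 1.13 ± 0.11 (SE, adjusted p = 1.18e-07), the death ligand TNFSF10 by 0.90 ± 0.11 (adjusted p = 8.26e-07) and IRF1 by 0.67 ± 0.14 (adjusted p = 0.000744, limma). At 3 h 0 of the 19 tested were past 1.7-fold in either direction. The filter on low values left out 9 genes of this list, each detected on at most 2 arrays. Of these, LIF dropped from 7.78 at 0 h to 5.39 at 3 h and IL1A from 6.71 to 5.91. Both 3 h values were below the lowest value detected on that array. The drop of LIF was past 1.7-fold also when counted to that lowest value. LTB was slightly higher at 3 h than at 0 h, and the rest were detected on 0 or 1 array.

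Of 29 inflammatory receptors and adaptors, 23 were tested, 7 rose and 3 fell, with a median of 0.28. The Toll-like receptors TLR1 and TLR5 rose by 1.74 ± 0.24 (SE, adjusted p = 6.7e-06) and 1.39 ± 0.16 (adjusted p = 4.74e-07), and the kinase IRAK4 by 1.16 ± 0.16 (adjusted p = 5.56e-06, limma). Its relatives IRAK2 and IRAK1 fell by 1.59 ± 0.23 (SE, adjusted p = 1.39e-05) and 1.06 ± 0.11 (adjusted p = 2.15e-07), and IL1RN, the interleukin 1 receptor antagonist, fell by 1.39 ± 0.16 (adjusted p = 7.71e-07, limma).

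CXCL10 is itself an interferon-stimulated gene. Of 24 others 23 were tested, 14 rose and 1 fell, with a median of 0.51, whereas the linear change of CXCL10 was negative. IFIT1 rose by 0.89 ± 0.30 (SE, adjusted p = 0.0187), IRF9 (ISGF3G in the table), a subunit of the interferon-activated factor ISGF3, by 0.86 ± 0.14 (adjusted p = 3.59e-05) and IFI44L by 0.80 ± 0.26 (adjusted p = 0.0164, limma). GBP1 fell by 1.38 ± 0.25 (SE, adjusted p = 0.000119). The count of rising genes rested on the first arrays, being 5 without the 0 h and 8 without the 3 h array, and IFIT1 and IFI44L did not pass without the 0 h (0.46 and 0.24) or the 3 h array (0.69 and 0.51), nor IFIT1 without the 6 h array (0.68). Within the 12 h sets 8 of them rose.

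AU-rich elements in short-lived messages, those of IL8 and CXCL1 among them, are bound by proteins that speed or delay their decay. All 10 of the list were tested, 3 rose and 3 fell. The decay factor ZFP36 rose by 0.77 ± 0.12 (SE, adjusted p = 2.75e-05), its relatives ZFP36L1 by 0.58 ± 0.14 (adjusted p = 0.00182) and ZFP36L2 by 0.34 ± 0.12 (adjusted p = 0.0248, limma). ZFP36 was 12.65 at 0 h and 11.98 at 3 h. HNRNPD (HNRPD in the table) fell by 0.70 ± 0.06 (SE, adjusted p = 1.01e-08), KHSRP by 0.66 ± 0.14 (adjusted p = 0.000506) and TIA1 by 0.53 ± 0.11 (adjusted p = 0.000439, limma). ZFP36L2 did not pass without the 3 h or the 45 h array (0.28 and 0.25), and KHSRP had a change of 0.34 within the 12 h sets.

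**Figure D5:**
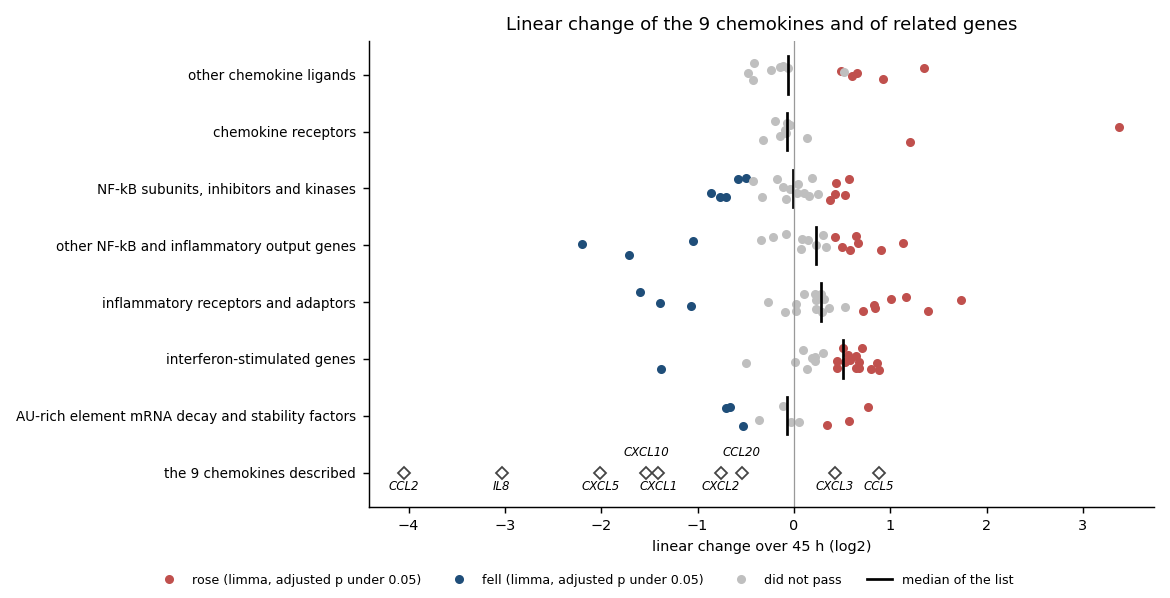
Linear change over 45 h (horizontal axis, log2) of each tested gene of 7 pathway lists and of the 9 chemokines (diamonds, bottom row). Red and blue points rose or fell in limma at an adjusted p under 0.05, grey points did not pass, and black bars are the medians. CCL2 and IL8, at −4.04 and −3.03, lie below every gene of the lists, and ACKR3, at 3.37, lies above.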

How the data were processed

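Biotin-labelled copies of the RNA of 16 SUM225 cultures were each hybridised to 1 Illumina bead array. The labels give no array version and the scanning software is not given in the sources used here. The deposited values are signal intensities on a linear scale, which the authors had neither background-subtracted nor normalized. A deposited detection p-value against negative controls stands beside each. Signals were corrected with the normexp model, quantile normalization, an offset of 16 and a log2 transformation (neqc, limma 3.58.1, R 4.3.3), and the offset shrinks the folds of dim probes. Only probes with a detection p-value under 0.05 on at least 3 arrays entered the tests (16110 of 24526). A cubic course in hours (F-test, and the linear change over 45 h) and differences between the windows 3 to 9, 12 to 21, 24 to 33 and 36 to 45 h were fitted by lmFit and eBayes over all these probes, with two-sided p-values adjusted by Benjamini-Hochberg at 0.05. The error is the spread of single arrays around the fit, which may be technical, and precision is limited by how many arrays there are. The fits were tested on simulated data with independent noise and no steps between the 12 h sets. That test cannot show how such steps would affect the calls.

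The members and the pathway lists were chosen with earlier results of these data known. A few genes of the lists are not reported here and were left out of the lists and their counts. All members are named, and of each list the 3 genes that rose most and the 3 that fell most among those past the threshold. A few genes outside this rule are named beside small counts and were picked with their values in view. For likeness of course, the 3 genes with the highest Pearson r were named for each member detected on at least 8 arrays, with other members in addition. Where a gene had several probes, its brightest on average stood for it. A gene not detected on an array has a bound, the lowest value among probes detected on that array or its own value where higher. Tried as alternatives were cyclic loess or median scaling, an offset of 50, signals left uncorrected for background (floor of 16), detection on all 16 arrays or no filter, the 12 h set as a factor, a detection p-value under 0.01 and each array left out in turn. Promoters came from RefSeq (GRCh38.p14). Python 3.11.15 with matplotlib 3.10.9 drew the figures.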

Additional observations from a re-analysis of the deposited data

How the results depend on the processing

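The limits are these. With 1 array per time point, a difference between 3 h and 0 h has no replicate behind it, and the 0 h array carries much of the linear change of IL8, CCL2, CXCL1 and CCL20. CXCL1, CXCL2, CXCL3 and CXCL5 lie near the background, and under a detection p-value of 0.01 they were detected on 10, 4, 3 and 6 arrays. Without background correction the changes of CXCL1 and CXCL5 were smaller, as were those of CCL2 (−2.72 over the course). No second probe of any of the 9 genes was in the table, so that alternative gave no value. No paired analysis was possible because every time point has 1 array and all share the same replicate number.

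A value was taken as kept when a pathway gene held its call and sign, or a chemokine moved by less than the spread of its arrays. A count was taken as kept while its ratio to the main count, or its difference for arrays with detection, stayed within a set limit. Such a count could therefore change. Of 748 values under other settings, 655 were kept in this sense, 28 lost the call, 60 moved further and 5 called values changed sign. These 5 changes came with the 12 h set as a factor, where the linear change was 0.21 for CXCL2, −0.14 for CCR9, −1.01 for CX3CL1, −0.22 for TNIP2 and 0.34 for KHSRP. CXCL3, which was not called, went from 0.43 to −2.28. With that factor 68 probes rose and 77 fell, 0 of the 9 chemokines passed in either direction, and 8 pathway genes rose (43 without it) and 1 fell (15 without it). The cause was not tested. Between 3 h and 0 h, the probes past 1.7-fold were 151 lower and 114 higher when detected on all 16 arrays, 66 lower and 38 higher without background correction, and 172 lower and 106 higher with an offset of 50. The chemokines past it on the lower side were 2 on all 16 arrays and 3 without background correction. Of the 4 chemokines detected on all 16 arrays, 3 had a falling trend. With median scaling 87 probes rose from 24 to 33 h to 36 to 45 h.

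With each array left out in turn, 1674 of 1712 values were kept in the same sense, 12 lost the call, 26 moved further, and no called value changed sign. Counts among those kept did change. The probes falling between the first 2 windows numbered 2078 with all arrays and 1570 without 6 h. Small differences that were not called changed sign in 10 cases. CXCL5 between the first 2 windows went from −0.13 to 0.07 without 3 h, CXCL3 between the next 2 from −0.11 to 0.02 without 33 h, and between the last 2 CCL20 from −0.10 to 0.02 without 27 h, CCL5 from −0.00 to at most 0.08 (without 36 h) and CXCL5 from −0.09 to 0.01 without 24 h or 27 h. Over these, the probes that fell from 12 to 21 h to 24 to 33 h numbered 405 to 887 and those that rose 537 to 1074 (the lowest without the 30 h array, and 420 and 432 falling without the 12 h or 15 h array). Those that rose from 24 to 33 h to 36 to 45 h numbered 52 (without 24 h) to 251 (without 3 h). Falling chemokines numbered 5 to 7.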
